A study of Gasterosteus aculeatus with 16 samples.

Results

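GroupXIX is the chromosome of the threespined stickleback (Gasterosteus aculeatus) that carries sex determination. Its genes were taken as all gene models whose locus in the deposited expression tables lies on groupXIX of the BROADS1 assembly, and their expression was compared with genes of the 20 other numbered groups, along the chromosome, between clutches, and between exposed and control clutches. The set held 1047 gene models (1046 gene IDs, of 22456 models in all), and 858 of them were among the 17440 genes with a value in CPM (reads per 1000000 reads in genes). Of these, 433 had a mean of at least 10 CPM over all clutches, and the values per clutch of whole windows are medians over such genes. No gene was left out for its response to exposure.

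Each library was made from whole embryos of 1 clutch at 3 days post-fertilization, with 10 embryos pooled and 1 clutch per mother. Mothers of the 8 exposed clutches were wild-caught females chased daily with a rubber model of a sculpin (simulated predation risk), and mothers of the 8 control clutches were wild-caught females that were not chased. The sex of the embryos in each pool is not given in the labels, and neither is the tank of each mother, although exposure was assigned by tank, so p-values treat clutches as independent. Clutches are named by the number pair of their labels, such as 15_2, whose meaning the labels do not give.

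In sticklebacks the male is the heterogametic sex. Females carry a pair of X chromosomes, of which groupXIX is the reference sequence, and males carry an X and a Y. The X and Y exchange sequence only near one end, the pseudoautosomal region, and over the rest of its length the Y has diverged from the X and has lost many genes, while other genes remain on both. The reference assembly used here was made from a female, so reads from Y copies can only be aligned to groupXIX where the copies are similar enough.

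The clutches held between 8950867 and 12765406 reads in genes, of which groupXIX took 367491 to 452025. Markers of differentiated tissues of the embryo were present in every clutch, with the embryonic hemoglobin hbbe1.1 at 1467 to 4594 CPM, the lens crystallin crygm2b at 64.8 to 217 CPM and the coagulation factor F2 of the liver at 38.5 to 124 CPM. Clutch 15_2 was the shallowest library and also had the highest groupXIX level, so the values over clutches are also given without it.

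GroupXIX genes were expressed throughout the embryo pools at levels somewhat below those of the rest of the genome. Of the 1047 gene models, 739 had a mean of at least 1 FPKM (a count of fragments scaled by exon length and by library size, so that levels of different genes can be compared), 256 at least 10 and 26 at least 100, and 40 were listed at 0 in all clutches. The share of models reaching 1 FPKM was 70.6% on groupXIX and 69.8% on the other groups. Among those models the median was 6.32 FPKM on groupXIX and 7.40 FPKM on the other groups, whose own medians ran from 6.15 (groupXXI) to 8.38 (groupIII). GroupXIX was the third lowest of 21 by this measure, and the fifth lowest with a minimum of 0.1 FPKM (4.51 against 4.82 FPKM). With a minimum of 5 FPKM it was the lowest (11.99 against 15.3 FPKM), just below groupXXI at 12.03 FPKM.

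The ratio of the groupXIX median FPKM to that of the other groups was below 1 in most clutches but not all. In exposed clutches it ran from 0.748 (14_28) to 1.01 (10_5), with a mean of 0.848 ± 0.0926 (SD, n = 8), and in control clutches from 0.742 (20_28) to 1.06 (15_2), with a mean of 0.824 ± 0.102 (SD, n = 8). The groups overlapped over nearly their whole range. Along the chromosome, in 1 Mb windows numbered from its start, the median ran from 4.03 FPKM in window 11 to 8.57 FPKM in window 16, with high and low windows next to each other.

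**Figure D1:**
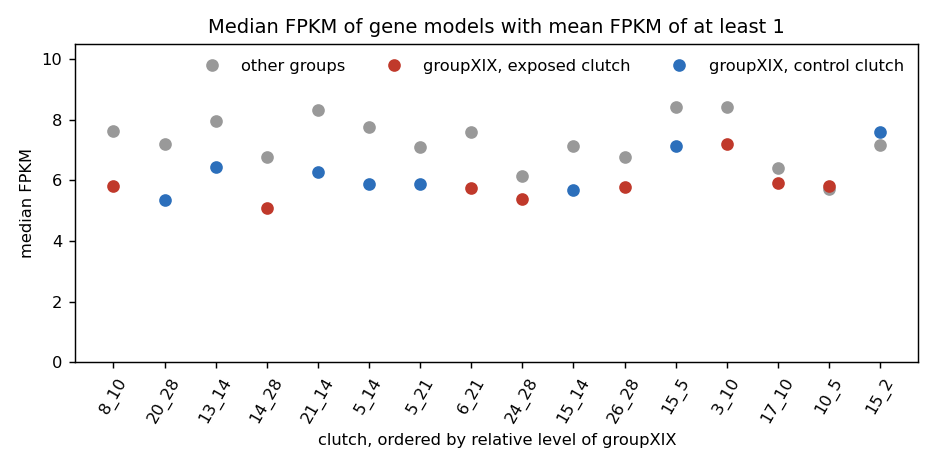
Median FPKM per clutch over gene models with a mean of at least 1 FPKM, for groupXIX (red, exposed clutches; blue, control clutches) and for the other groups (grey), with clutches ordered by the relative level of groupXIX on the x axis. The groupXIX median lies below that of the other groups in the clutches at left and reaches or passes it in 10_5 (ratio 1.01) and 15_2 (ratio 1.06).

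The most abundant groupXIX gene by reads, ENSGACG00000004968, had 2825 CPM in the lowest, 3291 in the median and 3603 in the highest exposed clutch, against 2829, 3269 and 3525 CPM in control clutches. The files do not name it, and its level differed little between clutches (SD of logCPM 0.11 over the 16 clutches). In all, groupXIX took 3.52% ± 0.210 (SD, n = 8) of reads in exposed and 3.59% ± 0.247 (SD, n = 8) in control clutches, with ranges of 3.26% to 3.81% and 3.30% to 4.12%. The difference was smaller than the spread within either group.

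The expression of groupXIX as a whole differed between clutches more than that of any other group. The relative level of a group in a clutch is the median, over its genes with at least 10 CPM, of the deviation of logCPM from the gene's mean over clutches, less the same median over genes of all other groups, on the log2 scale. In exposed clutches the relative level of groupXIX was lowest in 8_10 (-0.14), had a median of -0.01 and was highest in 10_5 (0.12). In control clutches it was lowest in 20_28 (-0.13), had a median of -0.04 and was highest in 15_2 (0.22). The groups overlapped, with the highest value in control clutch 15_2, followed by exposed clutches 10_5, 17_10 and 3_10.

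The SD of this value over the 16 clutches was 0.0947 for groupXIX. For the 20 other groups it ran from 0.00904 to 0.0231 with a median of 0.0127, so the SD of groupXIX was 4.10 times that of the next group, groupV, and 7.43 times the median. Without clutch 15_2 it was 0.0760, and groupXIX ranked first with each of the 16 clutches left out in turn. This is a description of these clutches, for which no test was made. On FPKM, the second unit deposited, the relative level ran from -0.11 in 8_10 to 0.26 in 15_2, and the values followed those on logCPM (Pearson r = 0.977 over the 16 clutches, from the same libraries).

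**Figure D2:**
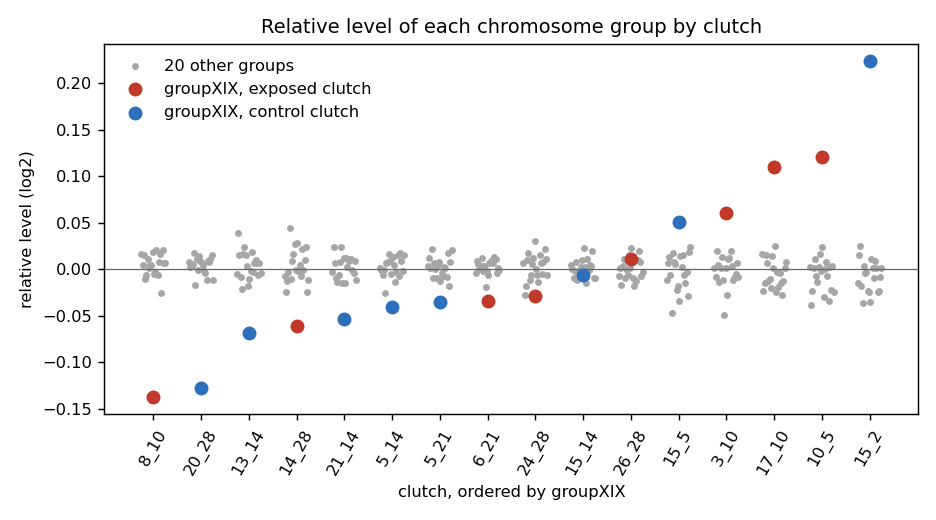
Relative level (log2, y axis) of groupXIX in exposed (red) and control (blue) clutches and of each of the 20 other groups (grey), for the 16 clutches ordered by groupXIX on the x axis. GroupXIX runs from -0.14 in 8_10 to 0.22 in 15_2, while the other groups stay close to 0 in every clutch.

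The mean relative level was 0.0053 ± 0.0885 (SD, n = 8) in exposed and -0.0068 ± 0.106 (SD, n = 8) in control clutches, a difference far inside the spread between clutches. Without 15_2 the means were 0.018 ± 0.0885 (SD, n = 8) and -0.026 ± 0.0560 (SD, n = 7), and the groups overlapped. Library depth moved with the relative level of groupXIX over the 16 clutches (Pearson r = -0.68, Spearman rho = -0.43), and less so without 15_2 and 10_5 (r = -0.26, n = 14). The mean logCPM of 27 structured non-coding RNAs listed by the study had r = 0.38, and 0.11 without those clutches, and the mitochondrial share of reads had r = 0.21. The part of depth and of structured RNA in the groupXIX level was not tested.

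The variation between clutches was not spread evenly along the chromosome. GroupXIX was divided into 1 Mb windows by gene start, numbered 1 to 21 from the start of the sequence, and the relative level was computed for each. The windows were then joined into 4 stretches, which were chosen after their values were seen. In windows 1 to 4 (63 genes) the relative level had an SD over clutches of 0.0328 and ran from -0.04 in 13_14 to 0.06 in 24_28. Taken singly, these windows had an SD from 0.0622 to 0.0815, above the median of single windows of other groups (0.0509). In windows 5 to 13 (232 genes) the SD was 0.133, and the level ran from -0.20 in 8_10 to 0.31 in 15_2, a 1.42-fold range. The clutches lowest and highest for the whole chromosome were thus also the extremes of this stretch, which holds the most genes of the 4.

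Each of windows 5 to 13 varied with the rest of groupXIX, with Pearson r from 0.891 to 0.965 over the 16 clutches and an SD from 0.115 to 0.170. The rest includes the other windows of the same stretch, so part of this r is shared within the stretch. The largest SD was that of window 5, between 4000001 and 5000000 on groupXIX (13 genes), directly after window 4, where the SD was 0.0815 and r was 0.26. Window 5 itself had r = 0.90. Without 15_2, windows 5 to 13 had r from 0.832 to 0.946 and a range of 1.31-fold over the stretch, with 10_5 highest (SD 0.107). In windows 1 to 4, r ran from -0.62 to 0.42, and from -0.43 to 0.27 without 15_2. For comparison, 356 windows of other groups with at least 10 genes had a median SD of 0.0509, and 3 of them had an SD as high as the lowest of windows 5 to 13. Their median r with groupXIX was -0.02 (from -0.60 to 0.71). This is r with another chromosome, and windows of other groups were not set against the rest of their own group.

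Window 14, between 13000001 and 14000000 (17 genes), stood apart from its neighbours with an SD of 0.0718 and r = -0.001 (-0.37 without 15_2). Beyond it, windows 15 to 21 (121 genes) varied again with the rest of the chromosome, with r from 0.51 to 0.89 (0.21 to 0.82 without 15_2), but with a smaller SD of 0.0796 over the stretch, from -0.11 in 14_28 to 0.17 in 15_2. Taken whole and set against the groupXIX genes outside it, this stretch had r = 0.826 over the 16 clutches. Found in the same way, r was 0.769 for windows 5 to 13 and -0.217 for windows 1 to 4. Taken singly, windows 15 to 21 had an SD from 0.0715 (window 16) to 0.135 (window 21). A low SD was thus not particular to window 14. Windows here hold 5 to 35 genes, and the values of the smallest, window 21, rest on 5.

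**Figure D3:**
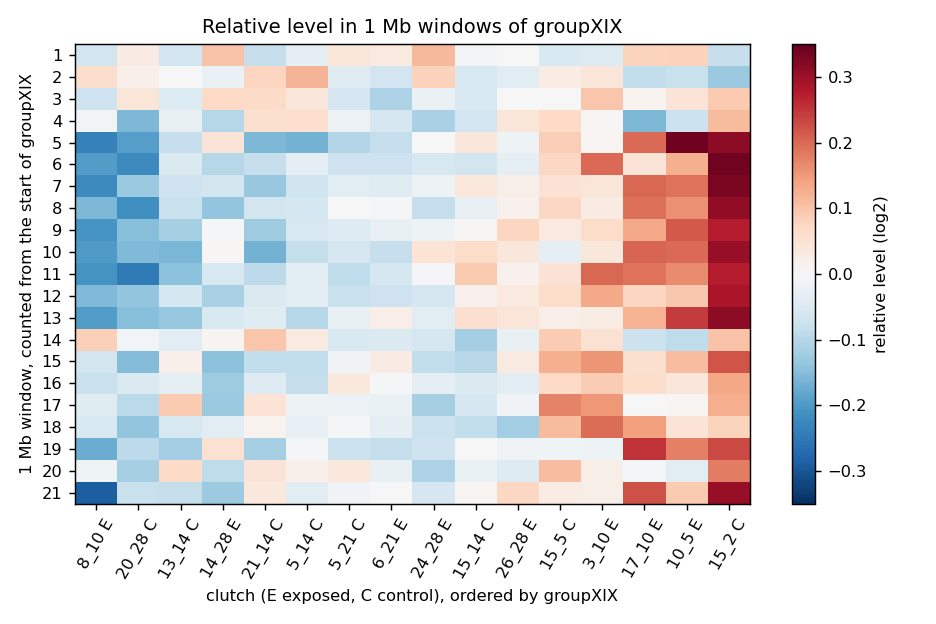
Relative level (log2, colour; red higher, blue lower) of each 1 Mb window of groupXIX (y axis, counted from its start) in each clutch (x axis, ordered by the whole chromosome; E exposed, C control). Windows 5 to 13 change together from low in 8_10 to high in 15_2, while windows 1 to 4 and window 14 show no such order.

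**Figure D4:**
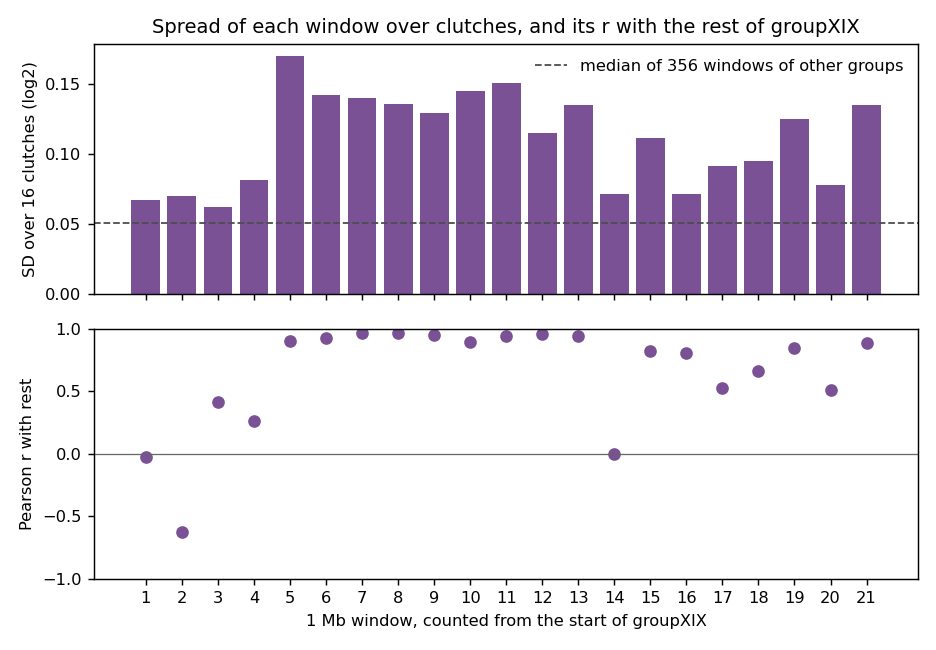
Top, SD over the 16 clutches of the relative level (log2) of each 1 Mb window of groupXIX, with the median of windows of other groups as a dashed line (0.0509); bottom, Pearson r of the same window with the rest of groupXIX over the 16 clutches. Windows 5 to 13 have an SD of at least 0.115 and r of at least 0.891.

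Many single genes of groupXIX varied with the chromosome. Of the 433 groupXIX genes with at least 10 CPM, 215 (49.7%) had a Pearson r of at least 0.5 with the relative level of groupXIX computed without the gene itself, against 144 of 8447 genes (1.70%) of the other groups. At r of at least 0.8 there were 40 genes of groupXIX and 0 of the other groups. Without 15_2 the shares at r of at least 0.5 were 41.6% (180 genes) and 4.06% (343 genes). Genes of a group can vary together on other groups too: when the genes of each of the 20 other groups were set against the level of their own group, the share with r of at least 0.5 ran from 1.86% to 28.9%, the highest being groupXI, with a median of 6.83%. All these genes share the 16 libraries and are not independent of each other.

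Between the clutches with the highest and the lowest relative level, 15_2 and 8_10, the difference fell on nearly all genes of the middle stretch. The median ratio of CPM, 15_2 over 8_10, was 1.40 in windows 5 to 13, where 222 of 232 genes were higher in 15_2. It was 0.974 in windows 1 to 4 (28 of 63 genes higher), 0.989 in window 14 (8 of 17) and 1.17 in windows 15 to 21 (93 of 121). In the other groups the ratio was 0.976, and 43.2% of genes were higher. With 1 clutch on each side and clutches chosen for their level, this comparison has no test.

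The gene that varied most like the chromosome was ENSGACG00000010239, in window 12, with r = 0.94. It had 17.5 CPM in the lowest, 20.8 in the median and 28.7 in the highest exposed clutch, and 19.4, 21.7 and 32.8 CPM in control clutches. Its lowest clutch was 8_10 and its highest was 15_2, as for the chromosome. The lowest r was that of ENSGACG00000002527, in window 2 (r = -0.60), with 18.3 to 29.3 CPM in exposed and 19.9 to 31.0 CPM in control clutches. The largest SD of logCPM among groupXIX genes with at least 10 CPM was that of ENSGACG00000006806, in window 9 (0.76, r = 0.52). It ran from 40.8 to 224 CPM with a median of 112 in exposed clutches, and from 33.1 to 126 CPM with a median of 86.2 in control clutches, so that the groups overlapped.

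Few groupXIX genes differed between exposed and control clutches. With limma on the deposited logCPM values (log2 CPM with a moderating prior of 2.77 CPM, which makes fold changes of weakly expressed genes smaller) and a false discovery rate (FDR) of 0.1 over all genes, 4 of 858 genes passed (0.466%), and all 4 fell, where 0.516% of all 17440 genes passed in either direction, 0.413% falling and 0.103% rising. On log2(FPKM + 1) at FDR 0.05, 4 of 1000 gene models passed, 1 that rose and 3 that fell, where 0.309% of all models passed, 0.0428% rising and 0.266% falling. Both shares were close to those over the whole genome. No groupXIX gene of window 14 (32 tested) or of the first 4 windows (151 tested) passed on logCPM. At the share over all genes, sets of this size can hold no call, so this says nothing particular about them.

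ENSGACG00000006871, in window 9 (8085730 to 8091479), was downregulated in embryos of predator-exposed mothers on both scales. It had 188.9 CPM in the lowest, 208.9 in the median and 225 in the highest exposed clutch, and 226, 253 and 279 CPM in control clutches, so that every exposed clutch lay below every control clutch. Its log2 fold change was -0.28 ± 0.05 (SE, limma, adjusted p = 0.0432). Its gene name is not given in the sources used here, and it varied little with the chromosome (r = -0.11). It is not in the study's list of genes that differed between treatments, and neither are ENSGACG00000009849 and ENSGACG00000006809.

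FKBP4, a co-chaperone that works with Hsp90 on steroid hormone receptors, lies in window 17 (16717213 to 16723523). It ran from 103.7 to 167 CPM with a median of 144 in exposed clutches, and from 154 to 201 CPM with a median of 177 in control clutches. Of the 8 exposed clutches, 7 lay below every control clutch, and the log2 fold change was -0.35 ± 0.08 (SE, limma, adjusted p = 0.0881). WWOX, an oxidoreductase with WW domains known as a tumor suppressor in mammals, lies in window 16 and was weakly expressed. The study's list marks this gene as 1 of 2 with that name. It ran from 2.16 to 3.64 CPM (median 2.97) in exposed and from 3.50 to 6.37 CPM (median 4.34) in control clutches, with 6 of 8 exposed clutches below every control clutch and a log2 fold change of -0.36 ± 0.09 (SE, limma, adjusted p = 0.0976). On FPKM neither FKBP4 nor WWOX passed at FDR 0.05 (limma on log2(FPKM + 1), adjusted p = 0.0507 and 0.0683).

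ENSGACG00000009849, in window 12, also fell on both scales. It ran from 103.6 to 167 CPM in exposed and from 161 to 193 CPM in control clutches, with 7 of 8 exposed clutches below every control clutch and a log2 fold change of -0.33 ± 0.08 (SE, limma, adjusted p = 0.0974). ENSGACG00000006809, in window 9, fell on FPKM (46.3 ± 4.22 FPKM in exposed against 61.2 ± 6.79 in control clutches, SD, n = 8 each; limma on log2(FPKM + 1), adjusted p = 0.0387), while on logCPM its adjusted p was 0.120.

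One groupXIX gene rose, on FPKM. ENSGACG00000002366, in window 1 (927508 to 929601), had 6.04 CPM in the lowest, 6.46 in the median and 8.33 in the highest exposed clutch, and 3.97, 5.13 and 5.66 CPM in control clutches, so that every exposed clutch lay above every control clutch. The log2 fold change on log2(FPKM + 1) was 0.39 ± 0.08 (SE, limma, adjusted p = 0.0456), and on logCPM it was 0.31 ± 0.08 (adjusted p = 0.108). With median-of-ratios scaling, in which each library is scaled by the median gene and not by its total, it passed on both scales (adjusted p = 0.0874 on logCPM and 0.0212 on FPKM).

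**Figure D5:**
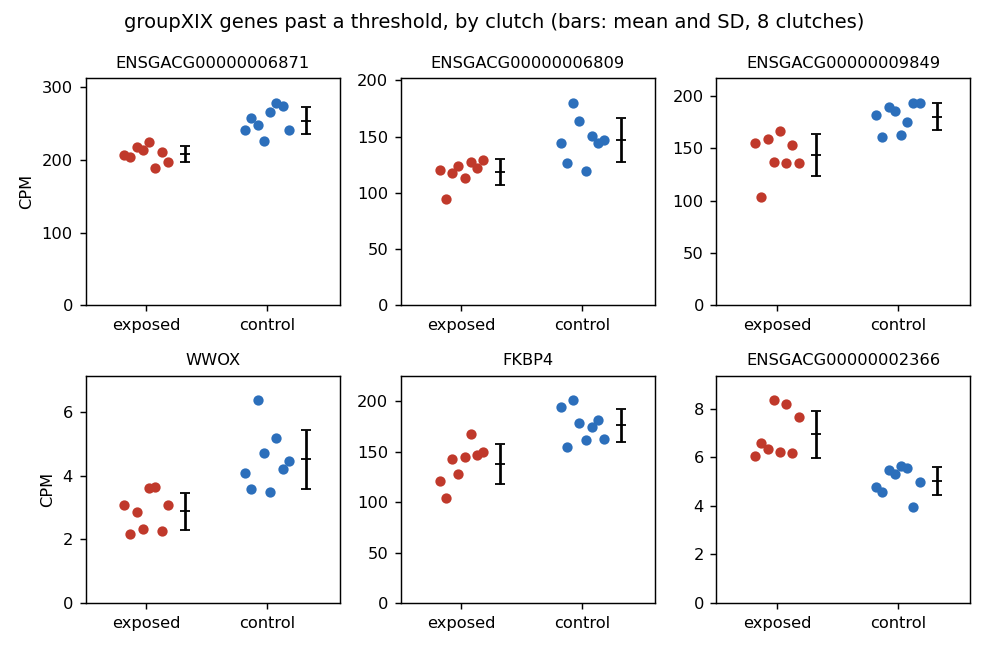
CPM (y axis, from 0) per clutch of the 6 groupXIX genes past the threshold on logCPM or FPKM, in 8 exposed (red) and 8 control (blue) clutches; black bars give the mean and SD of each group. In ENSGACG00000006871 and ENSGACG00000002366 the groups do not overlap.

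The calls depended on scaling and on single clutches. With median-of-ratios scaling none of the 4 genes that fell on logCPM passed (limma, adjusted p = 0.278 for ENSGACG00000006871, 0.121 for FKBP4, 0.139 for WWOX and 0.202 for ENSGACG00000009849). On groupXIX 1 gene passed, ENSGACG00000002366, which rose. Calls fell over the whole genome with this scaling, from 90 to 15 of 17440 genes. The share passing was then 0.117% on groupXIX and 0.0812% on the other groups. No groupXIX gene passed without control clutch 21_14 or without control clutch 5_14, where 7 genes passed in the whole genome in either fit, and 9.56% and 9.32% of groupXIX genes had an unadjusted p under 0.05 (82 and 80 genes), against 13.2% and 14.5% of genes of the other groups. Without exposed clutch 3_10, 42 groupXIX genes passed (4.90%, against 7.16% of genes of the other groups), without exposed clutch 8_10 there were 31 (3.61% against 6.44%), and without control clutch 15_14 there were 26 (3.03% against 4.42%). The structured RNAs are those the study listed as different between treatments in these samples, so that their mean differs by selection and moves with exposure. It was 2.88 ± 0.782 in exposed and 2.03 ± 0.365 in control clutches (logCPM, SD, n = 8 each). The highest value was that of exposed clutch 10_5 (3.89). Among control clutches 15_2 had 2.93 and the others 1.86 to 1.98. With this mean as a covariate 0 genes passed on any group. An unadjusted p under 0.05 was then reached by 86 groupXIX genes (10.02%), against 9.44% on the other groups.

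The standard errors of the exposure tests were larger on groupXIX than on the other groups. An unadjusted p under 0.05 was reached by 95 of 858 groupXIX genes (11.1%), where 16.3% of all genes reached it, and this was the lowest share of the 21 groups (the next was groupXXI with 13.3%), an order that did not hold with the structured RNA covariate. The median SE of the log2 fold change was 0.1002 on groupXIX and 0.0919 on the other groups. When the relative level of groupXIX was added to the fit as a covariate, an alternative chosen after the data were seen, the median SE was 0.0925, and the same 4 genes passed. This covariate is made from groupXIX genes themselves, most of them in windows 5 to 13. A smaller SE on groupXIX, and most of all in that stretch, was thus built in and is no separate evidence. By stretch, in the fit without the covariate, the share with an unadjusted p under 0.05 was 17.9% in windows 1 to 4 and 8.76% in windows 5 to 13. It was 6.25% in window 14 (2 of 32 genes) and 11.7% in windows 15 to 21. The median SE of these stretches was 0.0999, 0.1005, 0.0923 and 0.1008, so the order of the shares was not that of the SE. Whether the SE accounts for the shares was not tested. The median SE of windows 5 to 13 went from 0.1005 to 0.0885 with the covariate, and that of windows 1 to 4 from 0.0999 to 0.0989.

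Over the whole chromosome the balance of directions depended on the fit. The median log2 fold change was -0.04 over groupXIX and -0.05 over the other groups, and 36.6% of groupXIX genes and 33.6% of the others were above 0. With median-of-ratios scaling the medians were 0.02 and 0.003, and the shares above 0 were 55.5% and 50.9%. Without 15_2 the medians were -0.01 and -0.05, with 45.8% and 34.6% above 0, and with the structured RNA covariate they were -0.07 and -0.03, with 28.7% and 40.7% above 0. GroupXIX thus lay above the other groups in the former fit and below them in the latter. With the second clutch number as a block the medians were -0.03 and -0.09, with 41.96% and 29.2% above 0. That fit compares exposure only within the numbers found in both groups of clutches, which leaves out many clutches.

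The study's own list of genes that differed between treatments held 29 genes on groupXIX, of which 22 carry a gene name. It was drawn up from these samples, so that their direction here is no independent evidence. Of the 18 that the study listed from logCPM, 9 were higher and 9 lower in exposed clutches, 17 had an unadjusted p under 0.05, 0 rose and 2 fell (FKBP4 and WWOX) at FDR 0.1. Of the 18 listed from FPKM, 11 were higher and 7 lower, 8 had an unadjusted p under 0.05, 1 rose (ENSGACG00000002366) and 0 fell at FDR 0.05. Values of the named genes that did not pass follow, from limma on logCPM.

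DNAJA2, a co-chaperone of Hsp70 that lies in the same window as FKBP4, had 120 ± 16.3 CPM in exposed and 149 ± 13.2 CPM in control clutches (SD, n = 8 each), with 5 exposed clutches below every control clutch and an adjusted p of 0.110. GTF3C6, a subunit of the transcription factor TFIIIC that serves RNA polymerase III, had 11.7 ± 2.30 and 15.5 ± 1.67 CPM (adjusted p = 0.124). CCND2, the cell cycle regulator cyclin D2, had 9.91 ± 2.66 and 14.8 ± 2.86 CPM (adjusted p = 0.121). The values of these genes and of KLHDC4 (41.7 ± 6.47 against 56.6 ± 12.6 CPM, adjusted p = 0.130) were lower in exposed clutches but did not pass.

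LDHD, a D-lactate dehydrogenase of mitochondria, had 23.5 ± 2.94 CPM in exposed and 19.2 ± 1.24 CPM in control clutches (SD, n = 8 each), with 7 of 8 exposed clutches above every control clutch and an adjusted p of 0.137. CETP, which moves cholesteryl esters between lipoproteins, had 27.2 ± 12.2 against 18.1 ± 4.71 CPM (adjusted p = 0.233), HAL, which breaks down histidine, had 34.5 ± 9.07 against 26.9 ± 8.64 CPM (adjusted p = 0.284), and ETNK1, an ethanolamine kinase of phospholipid synthesis, had 7.18 ± 2.50 against 4.92 ± 0.982 CPM (adjusted p = 0.186). The gene listed as LCAT or PLA2G15, an acyltransferase or phospholipase, had 34.7 ± 6.98 against 31.7 ± 4.11 CPM (adjusted p = 0.655).

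Of the gene lists looked up by name, the histones had H2AFJ and HIST1H1A on groupXIX, both in window 3. H2AFJ, a variant of the core histone H2A, had 3.67 ± 1.69 CPM in exposed and 1.84 ± 1.14 CPM in control clutches (SD, n = 8 each, adjusted p = 0.167), and HIST1H1A, a linker histone, had 11.3 ± 3.27 and 16.4 ± 6.60 CPM (adjusted p = 0.276). The muscle list had the troponin subunits tnnt2d in window 6 and TNNI2 in window 10. TNNI2 had 39.99 ± 13.6 against 31.4 ± 7.93 CPM and tnnt2d 8.11 ± 3.85 against 5.88 ± 2.37 CPM (adjusted p = 0.356 and 0.378). None of the 4 passed.

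Among the other named genes, KIAA0101, which binds the replication clamp PCNA, had 86.1 ± 20.5 CPM in exposed and 71.7 ± 9.82 CPM in control clutches (SD, n = 8 each, adjusted p = 0.356), and varied with the chromosome (r = 0.52). ST7 had 19.2 ± 2.71 against 15.7 ± 1.67 CPM (adjusted p = 0.167), and MTL5, a testis-expressed gene in mammals, 2.27 ± 2.06 against 0.855 ± 0.427 CPM (adjusted p = 0.277). GALNT8, a transferase of mucin-type glycosylation, had 4.13 ± 2.84 against 2.49 ± 1.14 CPM (adjusted p = 0.359). PGC, a precursor of a gastric protease, had a median of 0.71 CPM in exposed and 0.45 CPM in control clutches (adjusted p = 0.547), and its exposed mean rested on clutch 6_21.

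GroupXIX also carries a pair of genes for U4, an RNA of the spliceosome, at neighbouring positions in window 6. ENSGACG00000022034 ran from 0 to 3.86 CPM (median 0.79) in exposed and from 0 to 1.01 CPM (median 0.08) in control clutches, and ENSGACG00000021758 from 0 to 2.77 CPM (median 0.45) and from 0 to 0.67 CPM (median 0). Where no read was counted, up to 3 reads (between 0.235 and 0.335 CPM by library) cannot be told from 0, by counting error alone. The adjusted p-values were 0.242 and 0.224. Both belong to the structured RNAs whose mean moved between clutches, and whether reads could be assigned to one or the other of this pair was not tested.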

How the data were processed

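Per the study's methods and the submitters' processing notes, oligo(dT)-selected RNA of 16 pools of whole embryos was sequenced from stranded libraries, and trimmed reads were aligned to BROADS1 with TopHat2 2.0.8. The authors deposited log2 values (logCPM) for 17440 genes, made with edgeR from reads counted within genes, and FPKM values for 22456 gene models, made with Cufflinks 2.1.1. Whether genes were counted by strand is not given in the sources used here. FPKM bounds were not used. Each logCPM value is log2 of CPM plus 2.77, so CPM and whole reads were recovered (largest distance from a whole read 3.8e-09 reads).

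The groups were compared with limma 3.58.1 in R 4.3.3 (lmFit, eBayes with trend). Two-sided p-values were adjusted by Benjamini-Hochberg over all features. The threshold was FDR 0.1 for logCPM and FDR 0.05 for log2(FPKM + 1), the latter over the 21028 models above 0 FPKM in at least 2 clutches. Adjusted p-values are from limma throughout. edgeR and Cuffdiff were not run. Values over groups and windows are descriptions with no test. Only the limma fit on logCPM and the relative level of groupXIX were tried on simulated reads. Genes there varied independently with the same dispersion, and the level changed evenly over groupXIX. Windows, r of single genes, FPKM, other scalings, blocks and covariates were not simulated. Figures were drawn with matplotlib 3.10.9.

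Genes named in the text are those past a threshold, those of the study's list with a name, the most abundant, the most variable and those most and least like the chromosome; members and lists were chosen with earlier results of these data known. Names come from the study's list, since the files hold IDs only. That list marks WWOX and CCND2 as 1 of 2, DNAJA2 and GALNT8 as 2 of 2 and TNNI2 as 5 of 5, so each shares its name with other genes. Of 9 listed genes found by symbol in a reference annotation, 7 lay on the X. The symbol of ETNK1 was found on chromosome 4 and that of DNAJA2 on chromosome 12, so these names are less certain. Alternatives were median-of-ratios scaling, log2(CPM + 0.5), a minimum of 1 CPM, voom on the recovered reads, clutch numbers as blocks, structured RNA as a covariate, other thresholds, pseudocounts and filters, and each clutch left out in turn. The relative level of groupXIX as a covariate, log2(CPM + 0.5) and clutches left out for the spread, values without clutch 15_2, genes set against their own group, and the joined windows were chosen after seeing the data.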

Additional observations from a re-analysis of the deposited data

Results flagged for a closer look

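In groups of 8 clutches, 74 sets of values were looked at for a highest or lowest clutch far from the others, and 15 had such a clutch. For independent, normally distributed values chance flags about 1 in 20. These sets share libraries, overlap and hold genes chosen for their values, so that rate does not apply to them. Control clutch 15_2 accounted for 7 of these, each time as the highest of the control clutches. Its relative level in windows 5 to 13 was 0.31, with the next clutch at 0.05, and its ratio of median FPKM, groupXIX to other groups, was 1.06, with the next at 0.847. In the same clutch KLHDC4 was at 84.0 CPM (next 59.0), HIST1H1A at 29.9 CPM (next 18.5), tnnt2d at 11.4 CPM (next 6.52), and the U4 genes ENSGACG00000022034 and ENSGACG00000021758 at 1.01 and 0.67 CPM (next 0.16 and 0.09).

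Exposed clutch 3_10 was far above the other exposed clutches for ETNK1 (12.9 CPM, next 7.53), GALNT8 (10.7 CPM, next 4.53), tnnt2d (17.1 CPM, next 9.42) and TNNI2 (70.7 CPM, next 45.5). Exposed clutch 14_28 was highest for CETP (53.9 CPM, next 32.6) and lowest for ENSGACG00000006809 (94.1 CPM, next 113). PGC was at 21.8 CPM in exposed clutch 6_21, with the next exposed clutch at 1.75 CPM, and HAL at 47.9 CPM in control clutch 15_14, with the next control clutch at 26.5 CPM.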

How the results depend on the processing

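The count of groupXIX genes past FDR 0.1 on logCPM (4 of 858, and 90 of 17440 in the whole genome) became 1 with median-of-ratios scaling. It was 0 with structured RNA as a covariate, and 0 to 42 with single clutches left out. At FDR 0.05 it was 1, where 16 genes passed in the whole genome. With log2(CPM + 0.5) and with voom it was 3, where 86 and 81 genes passed in the whole genome. With the level covariate it was 4 (67 in the whole genome). With the minimum of 1 CPM it was 5 of 769 genes (104 of 15995 in the whole genome). The second clutch number as a replicate block gave 0 (60 genes, 6.99%, at an unadjusted p under 0.05, against 10.3% on the other groups). Some second numbers occur only in exposed or only in control clutches, so this fit compares exposure only within numbers found in both. Its median SE on groupXIX was 0.134, and 0 genes passed in the whole genome. The first number as a correlated replicate block gave 9 (1.05%, against 1.35% on the other groups). The first numbers that recur, 15 and 5, do so only in control clutches, so this fit takes its correlation from control clutches alone. Clutch 15_2 is among them. What the numbers mark is not given. With median-of-ratios scaling on FPKM, calls over the whole genome went from 65 to 1 of 21028 models, with 0 on the other groups. The count on FPKM for groupXIX (4) became 1 with this scaling, ENSGACG00000002366, which rose, so the 3 that fell did not pass. It was 0 to 55 with single clutches left out (55 without 3_10, 21 without 6_21 and 13 without 15_2, or 5.51%, 2.102% and 1.30% of models, against 6.64%, 2.90% and 2.42% on the other groups). The cause of these changes was not tested. The median log2 fold change of groupXIX ran from -0.068 to -0.0097 with single clutches left out.

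Of 28 named genes under 8 other settings, none reversed except the U4 genes ENSGACG00000022034 (log2 fold change -0.067) and ENSGACG00000021758 (-0.026) with structured RNA as a covariate. All 28 were picked for a difference in these same samples, by the study or here. Keeping their direction was thus largely built in and is no separate evidence. ENSGACG00000006871 passed with 14 of 16 clutches left out in turn, ENSGACG00000009849 with 5, and FKBP4 and WWOX with 4 each. The SD of the relative level of groupXIX was 0.0819 to 0.103 under other minimums, the mean, without the most variable genes, and on log2(CPM + 0.5), and 0.0760 to 0.0985 with single clutches left out; it ranked first each time. Depth as a limit was not tested.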
